A study of Mus musculus with 6 samples.

Results

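The genes described here are 10 that glucocorticoid hormones are known to induce in many tissues: Fkbp5, Tsc22d3, Zbtb16, Klf9, Klf15, Per1, Nfkbia, Glul, Serpina3n and Lcn2. They were taken as every probe set, a group of oligonucleotides on the array summarised to 1 value, whose platform annotation lists exactly 1 gene symbol, that symbol being one of the 10. The rule found 11 of the 8997 probe sets, with 2 for Glul and 1 for each other gene. All 10 genes were thus measured, of 5780 genes named in this way. The genes were chosen by the mutant to wild-type intensity differences of these same arrays as well as by their known function. In particular, Fkbp5, Tsc22d3, Glul and Serpina3n were known to pass the test once mutant replicate 3 was left out. The group differences of these genes are therefore given as a description and not as a test.

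RNA came from the forearm long bones (radius and ulna) of newborn mice of strain 129sv. One group of 3 arrays held wild-type mice, and the other held 3 littermates labelled del175k mutant, which carry this mutation of Tnni2, the gene for the fast skeletal muscle form of troponin I. The labels do not give zygosity, sex or hour of collection, nor say whether an array held 1 mouse. P-values thus measure only the spread between these arrays, which may be partly technical. The values were intensities (brightness on a linear scale), with array medians of 39.6 on wild-type replicate 1 and 45.5 to 48.4 on the other arrays. Wild-type replicate 1 also had 1205 probe sets under an intensity of 20, against 405 to 558 elsewhere, and stood apart as a dim array. Each probe set of the table reached 20 on at least 3 arrays, so other probe sets of these genes that were dimmer would not be seen. Bone was present by its markers, with Col1a1, the main collagen of bone matrix, at 6552 to 7807 over the 6 arrays. Cartilage (Col2a1, 2540 to 4002) and skeletal muscle (Acta1, 1955 to 3614) were present too.

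Glucocorticoids such as corticosterone enter the cell and bind the glucocorticoid receptor, which is held ready by heat shock proteins and their cochaperones. The bound receptor moves to the nucleus and attaches to response elements, many of them far from the start of the gene, where it raises transcription of one set of genes and lowers that of another. Several induced genes damp the signal again or mediate its effects on inflammation and metabolism. In bone, glucocorticoids act on osteoblasts and growth plate chondrocytes, and in muscle they favour protein breakdown. Most genes of this group also answer to other signals, among them fasting, the circadian clock and inflammation. In RNA of whole bone, fewer cells of a type and less RNA per cell cannot be told apart.

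The sequences upstream of the start sites show which of these genes carry matches to known elements close to the gene. RefSeq promoter windows of assembly GRCm38.p6, from 250 bases before to 50 after a start, were found for 9 of the 10 genes, 12 windows in all. They were searched on both strands for the receptor's response element (GNACA and its inverted repeat TGTNC around 3 free bases, with N any base), for its single hexamer AGAACA, for the E-box CACGTG that clock factors bind, for the cyclic AMP element TGACGTCA and for the NF-kappaB site (GGGAC followed directly by TTTCC). The hexamer can overlap the full element. Positions count from 0 at the start site. The full response element was found in 1 of the 12 windows, that of Serpina3n, at -78 to -66, against 0.475% of 32851 windows of all genes. The hexamer was in 2 of the 12, those of Serpina3n (-183 to -178) and of 1 of 3 Tsc22d3 starts (-185 to -180), against 19.0% of all windows. E-boxes were in 3 of the 12, against 7.15% of all windows: Fkbp5 (-169 to -164), Per1 (-166 to -161, at 1 of its 2 starts) and Klf15 (-228 to -223, -172 to -167, and -3 to 2, across the start). The cyclic AMP element (1.79% of all windows) and the NF-kappaB site (0.155%) matched in 0 of the 12, which says only that these letters are not in these windows. A match is a run of letters and was not shown to be bound here. The 250 bases before the start are printed below for each window with a match, 5′ to 3′ in the direction of the gene so that the elements can be placed. Capitals mark the matches that lie wholly before the start. The third E-box of Klf15 runs past the start and stays in lower case. They lie at chr12:104406458-104406707, plus strand (Serpina3n), chrX:140600523-140600772, minus strand (Tsc22d3), chr17:28486150-28486399, minus strand (Fkbp5), chr11:69098699-69098948, plus strand (Per1), and chr6:90462326-90462575, plus strand (Klf15).
Serpina3n: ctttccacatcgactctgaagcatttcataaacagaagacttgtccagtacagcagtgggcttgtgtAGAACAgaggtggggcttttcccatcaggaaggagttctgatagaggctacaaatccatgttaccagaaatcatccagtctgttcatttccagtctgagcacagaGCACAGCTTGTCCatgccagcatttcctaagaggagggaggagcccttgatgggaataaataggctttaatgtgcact
Tsc22d3: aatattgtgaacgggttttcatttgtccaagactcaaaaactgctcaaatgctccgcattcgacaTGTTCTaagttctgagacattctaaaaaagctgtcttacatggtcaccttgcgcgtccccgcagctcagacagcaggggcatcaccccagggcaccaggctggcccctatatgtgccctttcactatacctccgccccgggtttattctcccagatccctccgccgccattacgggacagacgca
Fkbp5: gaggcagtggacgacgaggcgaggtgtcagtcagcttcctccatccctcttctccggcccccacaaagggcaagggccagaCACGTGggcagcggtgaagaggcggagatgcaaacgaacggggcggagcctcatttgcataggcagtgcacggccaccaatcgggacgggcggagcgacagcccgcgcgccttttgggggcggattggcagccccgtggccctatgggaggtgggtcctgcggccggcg
Per1: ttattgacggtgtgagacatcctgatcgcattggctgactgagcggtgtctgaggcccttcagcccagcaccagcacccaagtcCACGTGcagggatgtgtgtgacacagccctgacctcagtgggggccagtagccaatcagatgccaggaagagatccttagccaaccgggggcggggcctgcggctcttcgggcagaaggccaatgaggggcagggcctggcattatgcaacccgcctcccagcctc
Klf15: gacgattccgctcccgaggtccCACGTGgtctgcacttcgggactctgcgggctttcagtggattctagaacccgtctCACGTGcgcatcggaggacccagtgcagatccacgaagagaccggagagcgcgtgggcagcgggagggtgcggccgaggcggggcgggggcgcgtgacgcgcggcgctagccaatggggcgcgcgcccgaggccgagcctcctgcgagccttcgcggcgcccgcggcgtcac

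Fkbp5, Tsc22d3 and Nfkbia are the members that restrain signalling. Fkbp5 encodes a cochaperone that lowers the receptor's affinity for hormone and so closes a feedback loop. Its intensities were 14.5, 36.0 and 26.3 on wild-type replicates 1 to 3 and 225, 214 and 34.6 on mutant replicates 1 to 3. Mutant replicates 1 and 2 were alike and far above every wild-type array, while mutant replicate 3 lay just below wild-type replicate 2, so the groups overlapped. The means were 25.6 ± 10.7 and 158 ± 107 (SD, n = 3 each), a log2 difference (mutant minus wild-type) of 2.31 ± 0.65 (moderated SE from limma), the largest among the 11 probe sets.

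Tsc22d3 encodes GILZ, a leucine zipper protein that carries part of the anti-inflammatory action of glucocorticoids. It was at 18.6, 35.1 and 24.5 in the wild-type and at 166, 155 and 49.6 in the mutants. Here all 3 mutant arrays lay above all 3 wild-type arrays, although mutant replicate 3 was much nearer to wild-type replicate 2 than to the other mutants. The log2 difference was 2.11 ± 0.44, from 26.1 ± 8.37 to 124 ± 64.4 (SD, n = 3). Nfkbia encodes IkappaB-alpha, which holds NF-kappaB in the cytoplasm. Its values were 23.4, 59.1 and 38.9 in the wild-type and 90.7, 96.0 and 59.8 in the mutants. The groups of Nfkbia were separated only by the small step from 59.1 to 59.8, and its log2 difference was 1.09 ± 0.34.

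Among the transcription factors, Zbtb16 encodes PLZF, a zinc finger repressor with a part in limb patterning and stem cell maintenance. Its wild-type values of 14.5, 39.6 and 12.5 compared with mutant values of 188, 127 and 34.5. Zbtb16 was thus under 20 on 2 wild-type arrays, where an unknown treatment of background could shift its level, and mutant replicate 3 again lay below wild-type replicate 2. The log2 difference was 2.28 ± 0.61.

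Klf9 and Klf15 encode Krueppel-like factors that are direct receptor targets. KLF9 represses growth genes and KLF15 drives amino acid breakdown in muscle and liver. Klf9 was at 20.6, 40.5 and 24.7 in the wild-type and at 108, 70.7 and 30.7 in the mutants. For Klf15 the values were 19.7, 35.6 and 23.6 against 102, 87.2 and 34.3. In both genes mutant replicates 1 and 2 were above all wild-type arrays and mutant replicate 3 was between wild-type replicates 3 and 2. The log2 differences were 1.17 ± 0.43 for Klf9 and 1.40 ± 0.40 for Klf15. Without mutant replicate 1 that of Klf9 was 0.76. Over the 6 arrays these genes had nearly the same profile, with a root-mean-square distance of 0.17 on the log2 scale once each profile was centred on its own mean.

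Per1 encodes a repressor of the circadian clock that glucocorticoids induce within a short time. Its wild-type arrays were far apart, at 29.4, 87.2 and 31.9, and its mutant arrays stood at 152, 131 and 49.3. Wild-type replicate 2 exceeded mutant replicate 3, at a ratio of 0.57 of mutant to wild-type. The log2 difference of Per1 was 1.19 ± 0.50. Without wild-type replicate 2 it was 1.70, and without wild-type replicate 1 it was 0.91.

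Glul encodes glutamine synthetase, the enzyme that joins ammonia to glutamate and that glucocorticoids induce in muscle and other tissues. One probe set (10374453) was at 67.9, 106 and 84.3 in the wild-type and at 426, 372 and 118 in the mutants. The other (10350753) was at 42.6, 83.7 and 60.3 and at 322, 283 and 98.2. All mutant arrays were above all wild-type arrays on both, with mutant replicate 3 only a little above wild-type replicate 2. The log2 differences were 1.65 ± 0.44 and 1.79 ± 0.43. Both list the same Glul transcript in the platform's annotation, and a shared or near-identical target could make them alike, so they count as 1 gene.

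The secreted members behaved least like the rest on the wild-type arrays. Serpina3n encodes a serine protease inhibitor of the acute phase, and was at 31.0, 48.7 and 70.5 in the wild-type and at 225, 262 and 39.9 in the mutants. Mutant replicate 3 of Serpina3n lay below 2 of the 3 wild-type arrays, and the log2 difference was 1.49 ± 0.63. Lcn2 encodes lipocalin 2, an iron-siderophore binding protein of neutrophil granules and of inflamed tissue that bone cells make as well. Its wild-type values were 89.2, 47.6 and 98.5 and its mutant values 119.9, 212 and 84.1. Here wild-type replicate 2 was the lowest array, not the highest of its group, and mutant replicate 3 lay inside the wild-type range. The log2 difference of 0.79 ± 0.37 was the smallest of the 11, and it was 0.43 without mutant replicate 2 and 0.46 without wild-type replicate 2.

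**Figure D1:**
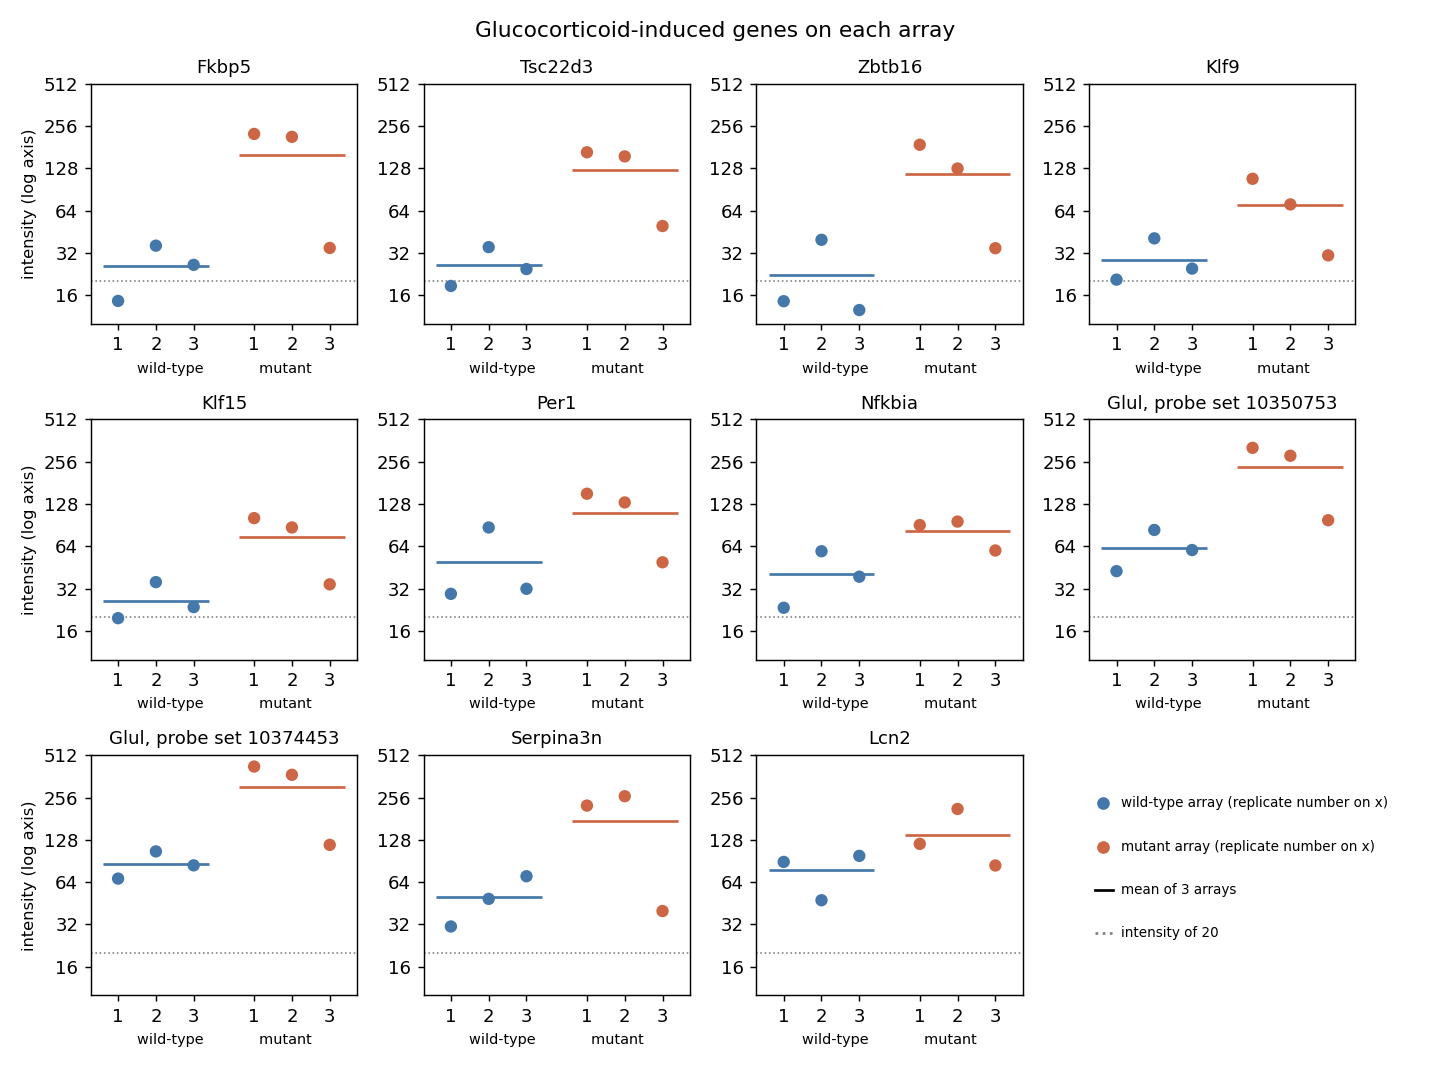
Intensity (log axis) of the 11 probe sets of the 10 glucocorticoid-induced genes on each of the 6 arrays, with wild-type arrays in blue, mutant arrays in orange, a line at the mean of each group of 3 and a dotted line at 20. Mutant replicates 1 and 2 are the highest arrays in all 11 panels, and mutant replicate 3 is the lowest mutant array in each, as with Fkbp5 at 225, 214 and 34.6.

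One array pattern ran through the group. In all 11 probe sets mutant replicates 1 and 2 were the 2 highest of the 6 arrays, as they were in 11.6% of all 8997 probe sets. Mutant replicate 3 was the lowest mutant array in all 11, as in 30.1% of all probe sets. Mutant replicates 1 and 2 were both at least 2-fold above mutant replicate 3 in 9 of the 11, the exceptions being Nfkbia and Lcn2, while 0.656% of all probe sets showed this. The span of the mutant arrays had a median of 1.74 on the log2 scale over the 11 probe sets and of 0.41 over all probe sets. Some of these genes were put forward from the comparison without mutant replicate 3, so these shares describe the choice as well as the bones.

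Relative to the wild-type mean, mutant replicate 1 was higher by 0.68 (Lcn2) to 3.29 (Zbtb16) on the log2 scale and mutant replicate 2 by 1.35 (Nfkbia) to 3.16 (Fkbp5). Mutant replicate 3 ranged from -0.25 (Serpina3n) to 0.98 (Tsc22d3). It exceeded all wild-type arrays in 4 probe sets, those of Tsc22d3, Nfkbia and Glul, or 36.4% against 31.2% of all probe sets. With Glul counted once, this was 3 of the 10 genes. The ratio of mutant replicate 3 to wild-type replicate 2 had a median of 0.96, with a range from 0.57 (Per1) to 1.77 (Lcn2).

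**Figure D2:**
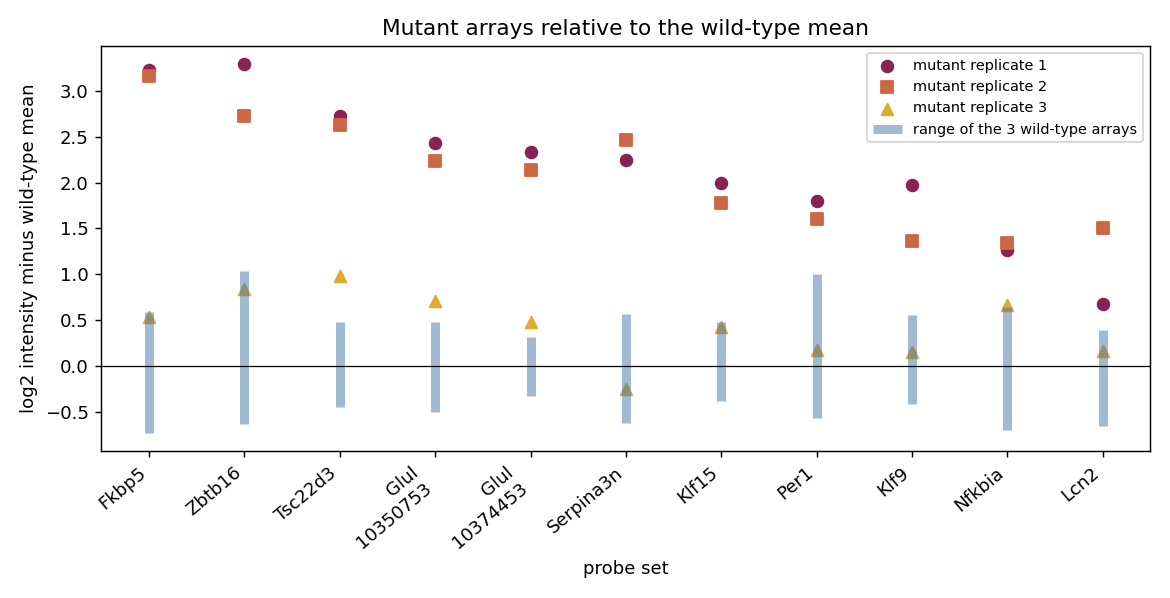
Log2 intensity of each mutant array minus the mean of the wild-type arrays (y axis) for the 11 probe sets (x axis, ordered by group difference); vertical bars span the 3 wild-type arrays. Mutant replicates 1 and 2 lie above every bar, whereas mutant replicate 3 lies above the bar in 4 probe sets only, those of Tsc22d3, Nfkbia and Glul.

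The wild-type arrays were ordered too. Wild-type replicate 2 was the highest wild-type array in 9 of the 11 probe sets, the exceptions being Serpina3n and Lcn2, and in 40.6% of all probe sets. Wild-type replicate 1, the dim array, was the lowest in 9 of the 11, against 68.3% of all. After each array was centred on its median, wild-type replicate 2 stayed highest in 9 of the 11, against 31.5% of all probe sets. Wild-type replicate 1 was then lowest in 6 of the 11, against 43.2% of all. The ratio of wild-type replicate 2 to replicate 1 ran from 0.53 in Lcn2 to 2.97 in Per1, with a median of 1.96.

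Over all 8997 probe sets, limma called 0 at an adjusted p of 0.05 (0%), and thus 0 of the 11. At an unadjusted p under 0.05 there were 10 of the 11, all but Lcn2, against 7.44% of all probe sets. All mutant arrays were above all wild-type arrays in 4 of the 11, against 9.18% of all, and below them in 0 of the 11, against 3.89%. The mean was higher in 11 of the 11, against 56.7% of all, and it was at least 2-fold higher in 10 of the 11, against 1.07% of all. The median log2 difference was 1.49 over the 11 and 0.04 over all probe sets. With Glul counted once, 9 of the 10 genes were at an unadjusted p under 0.05 by limma, and 9 were at least 2-fold higher. All mutant arrays were then above all wild-type arrays in 3 of the 10. Since this contrast was known when the genes were put forward, these counts are a description. The direction of each of the 10 genes was kept under median centring and quantile normalization, at medians of 1.43 and 1.45 over the 11 probe sets. Without wild-type replicate 1 the median was 1.21, against -0.03 over all probe sets. With array weights, which count deviating arrays less, 0 of the 11 were called, against 0.0445% of all probe sets. Without mutant replicate 3 the median was 2.23, and limma then called 5 of the 11 higher (0.167% of all probe sets were called), or 4 of the 10 genes. These were Fkbp5 at 3.19 ± 0.36, Tsc22d3 at 2.67 ± 0.30, Serpina3n at 2.36 ± 0.34 and both probe sets of Glul.

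Profiles within the group were compared by the root-mean-square distance of centred log2 values over the 6 arrays. After the 2 probe sets of Glul (0.13), the closest were Tsc22d3 and Glul probe set 10350753 (0.16), Klf9 and Klf15 (0.17) and Klf15 and Glul probe set 10374453 (0.18). Lcn2 was the most distant, at 0.73 from Nfkbia and up to 1.27 from Zbtb16. Outside the group, the 6 named genes nearest to Tsc22d3 were Trp53inp1 (0.09), Ddit4 (0.23), Sesn1 (0.28), Spock2 (0.30), Klhl24 (0.34) and Adh1 (0.35). Nearest to Fkbp5 were Trp53inp1 (0.36), Sesn1 (0.42), Ddit4, Abca1 and Spock2 (0.57 each) and Adh1 (0.58). Trp53inp1, a p53-inducible stress gene, was at 16.7, 34.3 and 21.5 in the wild-type and at 176, 138 and 47.8 in the mutants, an array order identical to that of Tsc22d3. The distances are descriptions over 6 arrays, and the dim wild-type replicate 1 enters every one of them.

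The wider pathway was described from lists of genes written from general knowledge. Of 50 further glucocorticoid-induced genes, 28 were measured, and 24 of them had a higher mean in the mutants and 4 a lower one (23 higher under median centring or quantile normalization). None passed (0 of 28 by limma, adjusted p of 0.05), while 13 were at an unadjusted p under 0.05, all higher, against 5.74% of all probe sets in that direction. The median log2 difference was 0.74, against 0.07 over all named genes, and 0.61 without wild-type replicate 1. The lists hold 1 probe set per gene, and named genes stood somewhat higher than all probe sets. Of 5780 named genes, 3463 had a higher mean, and 409 were higher at an unadjusted p under 0.05 by limma. All mutant arrays were above all wild-type arrays in 624 of them. In 10 of the 28 all mutant arrays lay above all wild-type arrays, against 9.18% of all probe sets. One of the 10, Hif3a, was set apart by the level filter, and without it the counts were 9 of 27 and, at an unadjusted p under 0.05, 12 of 27. Several of these genes were known from earlier results to be higher in the mutants, so the list is not independent of the comparison.

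The 3 members with the smallest p were Ddit4, Hif3a and Pik3r1. Ddit4, whose product restrains mTORC1, was at 20.9, 32.2 and 26.6 in the wild-type and at 167, 132 and 69.1 in the mutants (log2 difference 2.14 ± 0.33, limma adjusted p = 0.231). Hif3a, of the hypoxia-inducible factor family, was at 11.7, 12.5 and 8.08 and at 39.6, 43.9 and 23.9 (1.71 ± 0.28, limma adjusted p = 0.313). Because Hif3a was under 20 on all wild-type arrays, it entered the table only through its mutant values, so its groups had to be apart. Pik3r1, a regulatory subunit of phosphoinositide 3-kinase, was at 14.2, 21.8 and 17.7 and at 48.1, 47.9 and 30.8 (1.23 ± 0.25, limma adjusted p = 0.42). All 3 repeated the order in which mutant replicates 1 and 2 exceeded replicate 3. In 18 of the 28 genes these 2 arrays were the highest of the 6, against 11.6% of all probe sets.

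Among other classical targets, the groups overlapped for Sgk1, Dusp1 and Errfi1, and Klf4 was lower in the mutants. These 4 genes were named after their values were seen. Sgk1, a kinase that regulates ion transport, was at 21.8, 34.8 and 20.6 in the wild-type and at 59.4, 39.2 and 19.9 in the mutants, a log2 difference of 0.52 ± 0.38. Dusp1, a phosphatase that switches off MAP kinases, was at 137, 370.2 and 182 against 237, 248 and 292. All mutant values of Dusp1 lay inside the wild-type range, and wild-type replicate 2 was the highest array. Errfi1, an inhibitor of the EGF receptor, was at 40.7, 242 and 85.4 against 257, 176 and 102. Klf4 was lower on every mutant array (34.8, 38.5 and 31.7) than on the wild-type arrays (40.9, 94.5 and 41.5).

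**Figure D3:**
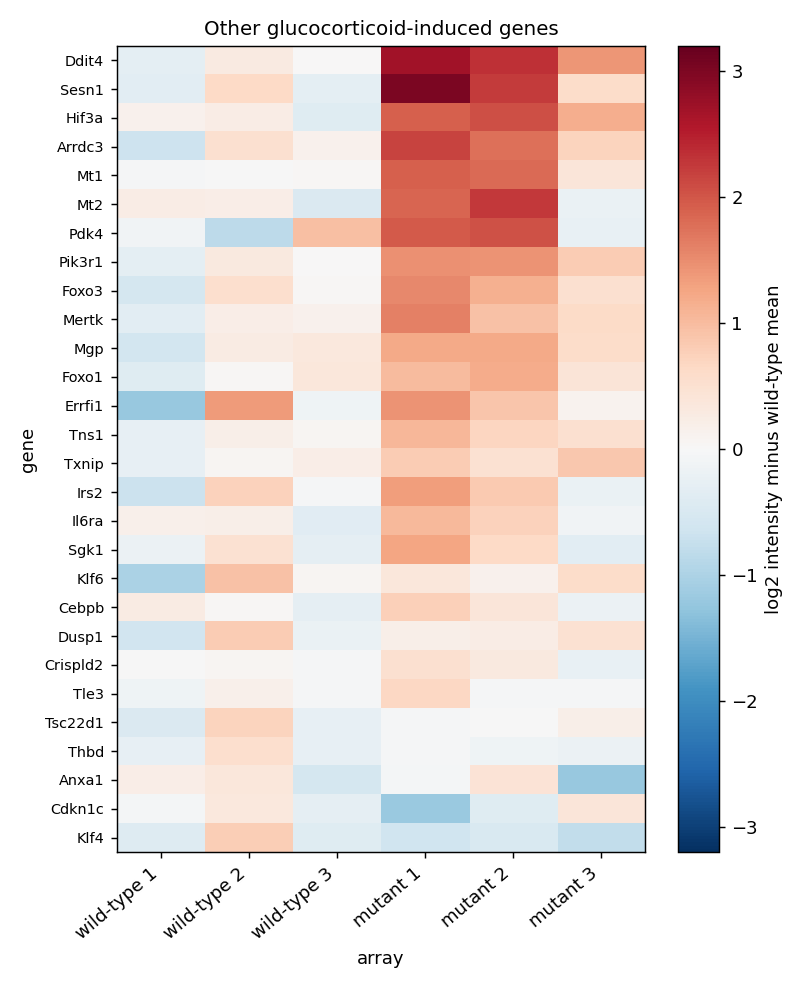
Log2 intensity minus the wild-type mean (colour) of the 28 measured further glucocorticoid-induced genes (rows, ordered by group difference) on the 6 arrays (columns). Ddit4, Sesn1 and Hif3a head the order with mutant replicates 1 and 2 darkest, and Klf4 is last, at a log2 difference of -0.64.

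The receptor gene itself was not analysed here. Of a list of 15 genes for the receptor, steroid activation and chaperones, 7 were measured (H6pd, Fkbp4, Hsp90aa1, Stip1, Ptges3, Bag1 and Hspa8), 3 with a higher and 4 with a lower mean, and 0 passed or reached an unadjusted p under 0.05. Their median log2 difference was -0.27, and -0.36 without wild-type replicate 1. H6pd, which supplies cofactor to the enzyme that reactivates glucocorticoids, was at 33.0, 30.2 and 31.3 in the wild-type and at 48.3, 38.9 and 38.1 in the mutants (0.40 ± 0.19). Fkbp4, the cochaperone that counteracts the product of Fkbp5, was at 55.5, 78.5 and 88.7 against 42.8, 48.0 and 79.5 (-0.41 ± 0.28). The chaperone gene Hsp90aa1 was at 66.2, 108 and 111 against 43.4, 83.9 and 85.0 (-0.45 ± 0.31). Among 10 measured coregulators, 7 had a higher mean (6 under median centring), against 56.7% of all probe sets. Their median was 0.40, or 0.12 without wild-type replicate 1. Ncoa3 (0.64 ± 0.25) and Med14 (0.53 ± 0.26) had the smallest p. By limma 0 of the 10 passed, and 1 was at an unadjusted p under 0.05, against 7.44% of all probe sets.

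Genes that glucocorticoids are known to lower were measured in 9 of 28 cases, with a median log2 difference of 0.09. The mean was higher in 8 of the 9 (6 under median centring, 7 under quantile normalization), against 56.7% of all probe sets. Mmp13, the collagenase of hypertrophic cartilage, was at 136, 269 and 295 in the wild-type and at 685, 445 and 351 in the mutants (1.10 ± 0.34). Mmp9, the gelatinase of osteoclasts, was at 262, 359 and 444 against 692, 485 and 630 (0.78 ± 0.25). Both were higher on each mutant array, though neither passed (limma adjusted p = 0.591 and 0.595). In 3 of the 9 all mutant arrays lay above all wild-type arrays, against 9.18% of all probe sets. By limma, 2 of the 9 were at an unadjusted p under 0.05, both higher, against 5.74% of all probe sets in that direction. The bone collagen genes Col1a1 and Col1a2 differed by 0.04 and 0.08.

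Lists for other signals that reach the same genes were set beside these. They too were written with earlier results of these data known. Their counts are therefore a description and not independent of the comparison. Genes of the FoxO factors and of starvation, which share Foxo1, Foxo3, Irs2, Sesn1 and Txnip with the further glucocorticoid-induced genes, had a higher mean in 20 of 20 measured genes, against 56.7% of all probe sets. Their median was 0.97 (0.72 without wild-type replicate 1), 0 passed by limma and 14 were at an unadjusted p under 0.05, all higher, against 5.74% of all probe sets in that direction. Depp1, Ccng2 and Pik3ip1 were under 20 on all wild-type arrays, so the level filter set their order. Without these 3 the count was 11 of 17 and the median 0.72. Depp1 was at 9.44, 8.37 and 12.9 in the wild-type and at 58.4, 39.1 and 33.6 in the mutants, and Bmf was at 23.9, 27.0 and 22.7 against 55.3, 51.8 and 48.9. Mutant replicate 3 was the lowest mutant array in 14 of the 20, against 30.1% of all probe sets. Mutant replicates 1 and 2 were the highest of the 6 arrays in 14 of the 20, against 11.6% of all. Clock genes other than Per1 had a higher mean in 8 of 9, against 56.7% of all probe sets, with a median of 0.31 (0.14 without wild-type replicate 1). Nfil3, a clock output repressor, was at 10.4, 49.2 and 21.5 against 77.6, 51.5 and 24.6. Csnk1d, the casein kinase that marks PER proteins, was at 47.7, 77.9 and 70.6 against 103.9, 72.3 and 78.6. As in Per1, wild-type replicate 2 was the highest wild-type array in 7 of the 9 clock genes, against 40.6% of all probe sets.

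Targets and regulators of NF-kappaB other than Nfkbia stood near the median of all genes. The 5 measured of 19 listed had log2 differences of 0.02 to 0.19, with Ikbkb at 0.19 ± 0.20 and Tnip1 at 0.13 ± 0.20. Acute phase genes other than Serpina3n and Lcn2 had a median of 0.24 over 6 measured genes, and 0.01 without wild-type replicate 1. Hp, for haptoglobin, was under 20 on all wild-type arrays (15.9, 12.6 and 17.7) and at 23.4, 33.3 and 22.0 in the mutants, so the level filter set its order. Il6st, the shared receptor of interleukin-6 type cytokines, was at 76.9, 165 and 134 against 273, 195 and 148. In the family of Klf9 and Klf15, 12 other SP and KLF genes had a median of -0.14, with 5 higher and 7 lower. Klf11 was at 43.0, 42.9 and 43.1 in the wild-type and at 30.2, 31.3 and 35.8 in the mutants. Beside Glul, 10 genes of glutamine and related amino acid metabolism had a median of 0.28 (0.12 without wild-type replicate 1). The glutamine carrier gene Slc1a5 was at 46.3, 68.4 and 37.9 against 110.5, 93.5 and 63.0, and Aldh18a1, of proline synthesis, at 85.9, 139 and 145 against 54.2, 70.1 and 109.

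**Figure D4:**
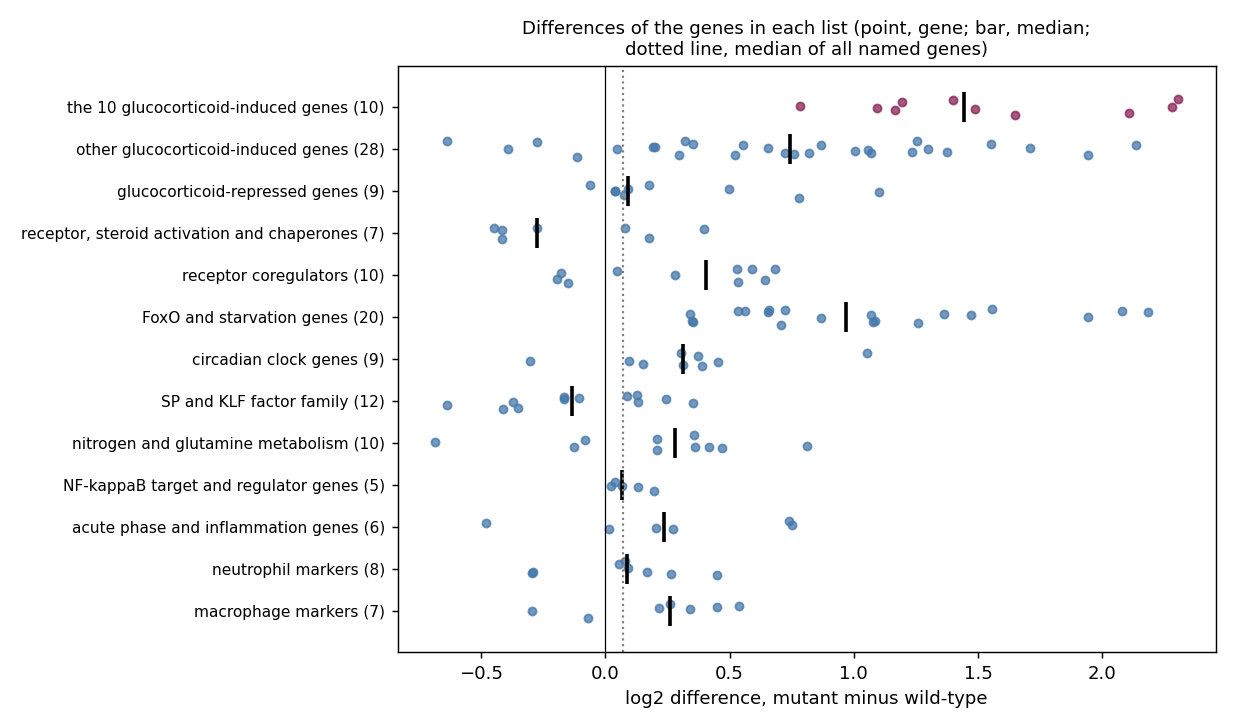
Log2 difference, mutant minus wild-type (x axis), of each measured gene in the 10 glucocorticoid-induced genes (top) and in 12 other lists, with 1 point per gene, a bar at the list's median and the number of genes in brackets. The medians run from 1.44 for the 10 genes through 0.97 for FoxO and starvation genes and 0.74 for further glucocorticoid-induced genes to -0.27 for the receptor's chaperones; the dotted line marks 0.07, the median of all named genes.

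Markers of the cell types in these samples were followed array by array. Of 17 neutrophil markers, 8 were measured, with a summed intensity of 186 to 387 in the wild-type and 254 to 319 in the mutants, and none was at 0. All 8 were lowest among wild-type arrays on replicate 2, as Lcn2 was, against 18% of all probe sets. Among mutant arrays, replicate 3 was the lowest for Lcn2 but for only 1 of the 8 markers, against 30.1% of all probe sets. The median log2 difference of the 8 was 0.09, with 6 higher and 2 lower in the mutants. S100a8 (0.45 ± 0.32) and Retnlg (0.27 ± 0.27) were among the higher, and Ltf (-0.29 ± 0.34) and Lyz2 (-0.29 ± 0.33) were the lower. The part of neutrophils in the level of Lcn2 was not tested. Macrophage markers (7 of 12 measured) summed to 254 to 373 in the wild-type and 331 to 359 in the mutants. Their median log2 difference was 0.26, with 5 higher and 2 lower in the mutants. Mrc1 (0.54 ± 0.25) and C1qb (0.45 ± 0.24) were among the higher, and Lyz2 (-0.29 ± 0.33) and C1qa (-0.07 ± 0.18) were the lower.

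Skeletal muscle markers (15 of 16 measured) summed to 4893, 7750 and 10361 on the wild-type arrays and to 6846, 6941 and 8769 on the mutant arrays. Their median log2 difference was -0.07, with 6 genes higher and 9 lower in the mutants. Ttn (0.64 ± 0.42) and Atp2a1 (0.41 ± 0.29), both among the higher, had the smallest p. The sum was thus lower on mutant replicates 1 and 2 than on mutant replicate 3, the reverse of the order of the 10 genes, and its part in their levels was not tested. Epidermal markers (7 of 14) summed to 1839, 1281 and 58.6 in the wild-type and to 85.1, 483 and 61.1 in the mutants, with Lor at -2.20 ± 0.90 and Krtdap at -1.94 ± 0.98. Their part in the levels of the 10 genes was not tested. Erythroid markers (4 of 13) summed to 352, 163 and 354 in the wild-type and to 555, 287 and 207 in the mutants. In the mutants 2 were higher, Tfrc (0.61 ± 0.24) and Alas2 (0.73 ± 0.31), and 2 lower, Car2 (-0.31 ± 0.40) and Slc4a1 (-0.15 ± 0.63). As in the 10 genes, mutant replicate 3 was the lowest mutant array in all 4 erythroid and all 7 epidermal markers. This held in 30.1% of all probe sets. The part of erythroid cells in the levels of the 10 genes was not tested. Adipocyte markers (3 of 11) summed to 64.2 to 101 and 84.6 to 89.0, led by Cd36 (0.26 ± 0.27) and Fabp4 (0.23 ± 0.25).

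Osteoblast markers (9 of 14) had a median log2 difference of 0.12 and chondrocyte markers (16 of 16) one of 0.11, against 0.07 over all named genes. Without wild-type replicate 1 these medians were -0.03 and -0.04, against -0.03 over all named genes. Dlx5 (0.36 ± 0.20) and Postn (0.36 ± 0.21) had the smallest p among the first, Chad (0.55 ± 0.26) and Ihh (-0.45 ± 0.23) among the second. Endothelial markers (11 of 13) had a median of 0.08 (-0.07 without wild-type replicate 1), with Ramp2 at 0.54 ± 0.20 and Ptprb at 0.43 ± 0.23. Of the 79 measured genes in these cell type lists 0 passed by limma. An unadjusted p under 0.05 was seen for 4 of the 79 (Ramp2, Tfrc, Alas2 and Lor), or 5.06%, below the 7.44% of all probe sets.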

How the data were processed

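Expression was measured on 6 single-colour Affymetrix whole-transcript arrays, 3 per group, per the labels. The deposited values are intensities on a linear scale, 1 per probe set. Background correction, summarisation, scaling and genome build are not given in the sources used here. Exactly 1 gene symbol was listed for 6398 of 8997 probe sets in the platform's annotation, several for 576 and none for 2023, and 0 symbols needed updating by Entrez identifier in RefSeq's GRCm38.p6 table. Only the first were named. For genes with more than 1, the probe set of highest mean stood for the gene in lists.

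Intensities were taken to log2 without normalization, filter or block, and fitted with lmFit and eBayes of limma 3.58.1 (R 4.3.3). Tests were two-sided, with Benjamini-Hochberg adjustment over all probe sets and a threshold of 0.05. The fit was checked on simulated data. Levels are means ± SD, and log2 differences carry the moderated SE. In each list the genes that passed were to be named, otherwise the 2 of smallest p (3 for receptor genes and further glucocorticoid-induced genes). For likeness the 6 nearest named genes were taken, skipping predicted genes, olfactory receptors and small RNAs. The members and lists were chosen with earlier results of these data known. Tables and plots used Python 3.11.15, pandas 2.3.3 and matplotlib 3.10.9.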

Additional observations from a re-analysis of the deposited data

How the results depend on the processing

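The count of probe sets called at an adjusted p of 0.05, 0 with all arrays, was also 0 after median centring or quantile normalization, with the replicate block, with robust variances that follow intensity, without the dimmest 25% of probe sets, and at a threshold of 0.1. With array weights limma called 4, of which 0 were among the 11 member probe sets and 2 among 37 other glucocorticoid-responsive genes. Leaving out each array in turn gave 0 to 15 calls over all probe sets, 0 to 5 among the 11 and 0 to 5 among the 37; every call came without mutant replicate 3. The log2 differences of the 10 genes were recomputed under 121 alternatives in all, and 0 changed sign. Also, 0 moved by more than 1 SD between replicates, but most of these settings could not have shown such a move. The block, the robust variances and the removal of dim probe sets left each difference unchanged. Leaving out 1 of 3 arrays shifts a group mean by less than that SD. The lowest values of the 10 genes ranged from 0.43 (Lcn2, without mutant replicate 2) to 1.85 (Fkbp5, without mutant replicate 1). Their highest values ranged from 1.09 (Lcn2) to 3.19 (Fkbp5), both without mutant replicate 3. The labels speak of pairs of littermates without naming them, and whether the replicate numbers mark pairs could not be told. Deviations from the group means of same-numbered arrays correlated at -0.11, -0.03 and 0.32 across probe sets. Those of arrays with different numbers correlated at -0.42 to 0.34, and wild-type replicates 1 and 2 correlated best with another number. With 3 arrays per group these correlations are tied to each other and cannot decide the pairing. The replicate block called 0 of the 11. Levels under 20 are close to background, whose handling is unknown, and 3 arrays per group limit the precision.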
